A study of Rattus norvegicus with 6 samples.

Results

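The JAK, STAT and SOCS signaling genes described here are the Janus kinases Jak1, Jak2, Jak3 and Tyk2, the transcription factors Stat3, Stat5a, Stat5b and Stat6, and the feedback inhibitors Socs1 and Socs3. These 10 genes were taken by symbol from the 34156 genes of the deposited RNA-seq table, and all 10 of them were among the 13614 genes that passed the filter on low counts. In this pathway a cytokine or hormone binds a receptor that has no kinase of its own, and JAKs bound to the receptor tails phosphorylate each other, the receptor and the STATs docked on it. Phosphorylated STATs pair, enter the nucleus and switch on genes, among them the SOCS genes, whose proteins block the kinases or mark the receptor complex for degradation. In the inflamed joint the pathway carries the signals of IL-6 family cytokines, interferons and GM-CSF, and JAK inhibitors are used to treat rheumatoid arthritis.

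The cells were rat fibroblast-like synoviocytes labelled as rheumatoid arthritis (RA-FLS) and as genotype WT, a bought cell stock from the lining of the joint. Each of the 6 libraries came from cells given TNF-α, the inflammatory cytokine, at 10 ng/ml, and the labels give day 5 as the time. In 3 of them (TNF-α) nothing else was given, and in the other 3 (TNF-α+EMO) the cells also received emodin (EMO), an anthraquinone of rhubarb, at 80 μmol/L. There was no group without TNF-α, so the comparison asks how EMO changed mRNA levels in TNF-α-treated cells. mRNA levels say nothing of the phosphorylation that switches JAKs and STATs on.

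The libraries held 16813322 to 17794455 reads counted in genes. The comparison of TNF-α+EMO with TNF-α was very broad: 80.9% of the genes tested changed, meaning an adjusted p under 0.05 in edgeR's quasi-likelihood test, 41.4% lower and 39.4% higher with EMO, and the groups did not overlap in 82.9%. The log2 correlation of libraries was 0.985 to 0.989 within a group and 0.746 to 0.760 between groups. By a chi-square per gene, TNF-α+EMO replicate 3 stood apart from replicates 1 and 2 of its group (23.5 and 15.1). The other pairs within a group were at 4.62 to 6.27. Of the synoviocyte markers, Vim and Col1a1 were abundant in the TNF-α group, whereas Pdpn, Thy1 and Prg4 had at most 7 counts in any library. The summed normalized count of the 11 synoviocyte markers in the table was 200604 to 220678 with TNF-α and 35980.2 to 38564 with TNF-α+EMO, and 7 of the 8 tested were lower with EMO, with Cd55 higher and a median log2 fold change of -5.55 (-4.68 with genes near 0 held at their bound). Most of the sum left with EMO was Vim, which was 1.90-fold lower, while Col1a1 was 30.0-fold, Cdh11 73.4-fold, Pdgfra 96.4-fold and Col3a1 435-fold lower. The epithelial marker Krt8 was also abundant, at 10389 ± 432 normalized counts with TNF-α and 2140.0 ± 168 with TNF-α+EMO, with Epcam at 0 throughout. The other epithelial markers, Cdh1, Krt18 and Krt19, had at most 8 counts in any library. The fibroblast label thus matched only some of its markers, and fewer of them at a high level with EMO. In bulk RNA, fewer cells of a type and less RNA per cell cannot be told apart, and what part the shift in these markers had in the results that follow was not tested.

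Of the 10 genes, 8 fell with EMO, 1 rose and 1 did not pass the test. The genes that fell were Jak2, Jak3, Tyk2, Stat3, Stat5a, Stat5b, Socs1 and Socs3, the gene that rose was Jak1, and the gene that did not pass was Stat6. Of all genes tested, 41.4% fell and 39.4% rose. Jak2, Jak3, Tyk2, Stat5a, Stat5b and Socs3 were also past 2-fold lower by their fitted values, 6 of 10 beside 27.8% of all genes tested. Their median log2 fold change was -1.21, beside -0.01 for all genes tested. The groups did not overlap for 9 of the 10 genes, the exception being Stat6, beside 82.9% of all genes tested. All log2 fold changes are TNF-α+EMO over TNF-α, so a negative value is lower with EMO, and all means are of 3 libraries with their SD.

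**Figure D1:**
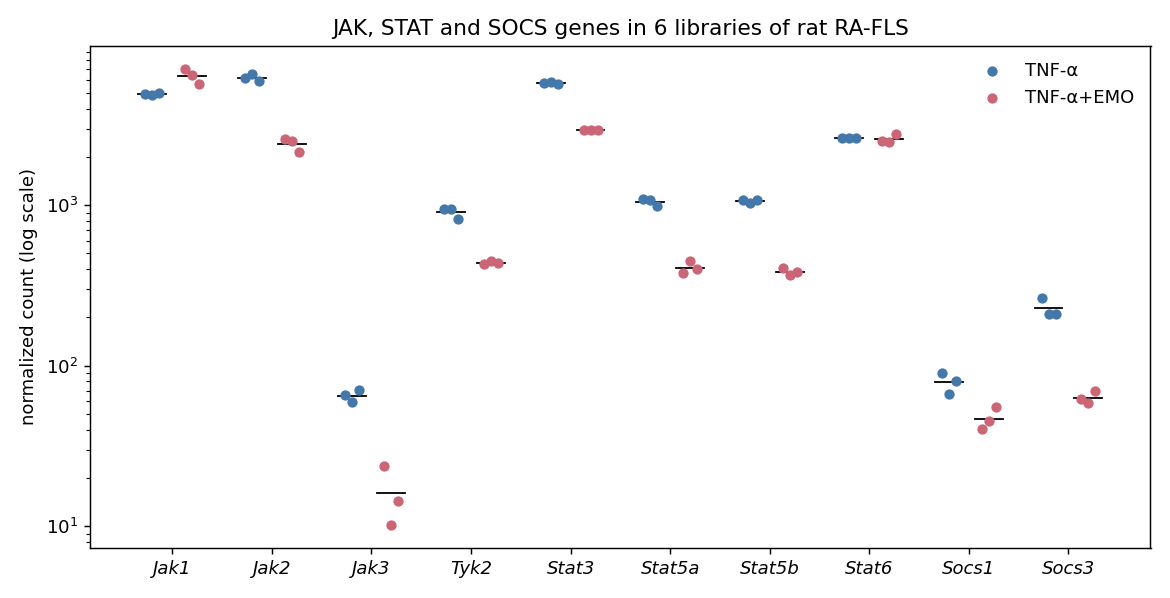
Normalized counts (log scale) of the 10 genes in each library. Points are the 3 libraries of TNF-α (blue) and of TNF-α+EMO (red), and the black line is the group mean. The groups were apart for every gene but Stat6, beside 82.9% of all genes tested, and Jak1 was the gene that stood higher with EMO.

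Among the kinases, Jak1 and Jak2 moved in opposite directions. Jak1, used by IL-6 family, interferon and gamma chain receptors, lies at chr5:119982943-120083904 on the minus strand (Rnor_6.0). Its normalized counts, scaled to a common library size, were 4898, 4860.2 and 4988 with TNF-α and 7076, 6466 and 5674 with TNF-α+EMO. The 3 TNF-α+EMO libraries were all above the 3 TNF-α libraries but were spread more widely. The mean went from 4915 ± 65.5 to 6405 ± 703, a log2 fold change of 0.38 (SE 0.08, adjusted p = 8.6e-04), which is 1.30-fold. A test against a change of 1.5-fold in place of 0 did not pass (adjusted p = 1.0).

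Jak2, the kinase of growth hormone, prolactin, erythropoietin, GM-CSF and interferon-γ receptors, lies at chr1:247398598-247458509 on the plus strand. It was at 6212, 6517 and 5922 normalized counts with TNF-α and at 2594, 2521 and 2144 with TNF-α+EMO. The groups were far apart, and every TNF-α+EMO library was below every TNF-α library. The mean fell from 6217 ± 298 to 2419.9 ± 241, a log2 fold change of -1.36 (SE 0.08, adjusted p = 3.2e-08) or 2.57-fold lower.

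Tyk2, which serves interferon, IL-10 family and IL-12 family receptors, lies at chr8:22124560-22150005 on the minus strand. Its normalized counts were 952, 945 and 824 with TNF-α and 430.1, 447 and 438 with TNF-α+EMO. The TNF-α+EMO libraries lay close together and well below the TNF-α libraries. The mean went from 907 ± 72.0 to 438 ± 8.54, 2.07-fold lower (log2 fold change -1.05, SE 0.09, adjusted p = 5.6e-07). Tyk2 was only just past 2-fold: its 95% interval ran from -1.24 to -0.86, and the other fits put it at -1.16 to -1.01.

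Jak3, the kinase that pairs with the common gamma chain and is best known from lymphocytes, lies at chr16:20109200-20120668 on the plus strand and had the largest log2 fold change of the 10 genes. It was a rare transcript in these cells, with 67, 61 and 72 counts with TNF-α and 23, 10 and 14 with TNF-α+EMO. As normalized counts these were 65.7, 59.5 and 70.1 against 23.7, 10.2 and 14.3, low with EMO in all 3 libraries and uneven among them. The mean went from 65.1 ± 5.35 to 16.1 ± 6.93, 4.03-fold lower (log2 fold change -2.01, 95% interval -2.72 to -1.30, adjusted p = 1.5e-04). That interval overlapped the one of Socs3 (-2.22 to -1.48). Without TNF-α+EMO replicate 2, Jak3 was at -1.78 and Socs3 at -1.80, so the rank of Jak3 is not firm. The lymphocyte markers fixed for comparison summed to at most 3.92 normalized counts in any library. The macrophage markers summed to 1205 to 1311 with TNF-α and 747 to 818 with TNF-α+EMO, with Ptprc, Adgre1 and Cd163 at no more than 3 counts in each library. The lower sum came from Cd14 (log2 fold change -1.10, adjusted p = 4.4e-07), whereas the other 2 macrophage markers tested were higher with EMO, Cd68 from 153 ± 14.7 to 256 ± 11.3 normalized counts and Itgam from 0.327 ± 0.566 to 12.3 ± 2.02. The part of these markers in the Jak3 result was not tested.

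Because the kinases moved unequally, the make-up of the JAK transcripts shifted. To compare levels between genes, normalized counts were divided by the deposited gene length and given per kilobase. Jak2 made up 49.1, 50.5 and 47.9% of the summed JAK level per kilobase with TNF-α and 23.7, 24.8 and 24.1% with TNF-α+EMO. Jak1 made up 43.2, 42.0 and 45.1% with TNF-α and 72.3, 70.9 and 71.1% with TNF-α+EMO. Thus Jak2 was the larger share in every TNF-α library and Jak1 in every TNF-α+EMO library. The share of Jak1 went from 43.4 ± 1.53% to 71.4 ± 0.733%, a difference of 28.0 percentage points. The two-sided exact permutation test gave p = 0.1, the smallest that 3 against 3 libraries allow (0.15 adjusted over the 3 ratios tested), so this design could not reach 0.05. The summed JAK level per kilobase was 2639.8 ± 58.0 with TNF-α and 2089 ± 213 with TNF-α+EMO.

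**Figure D2:**
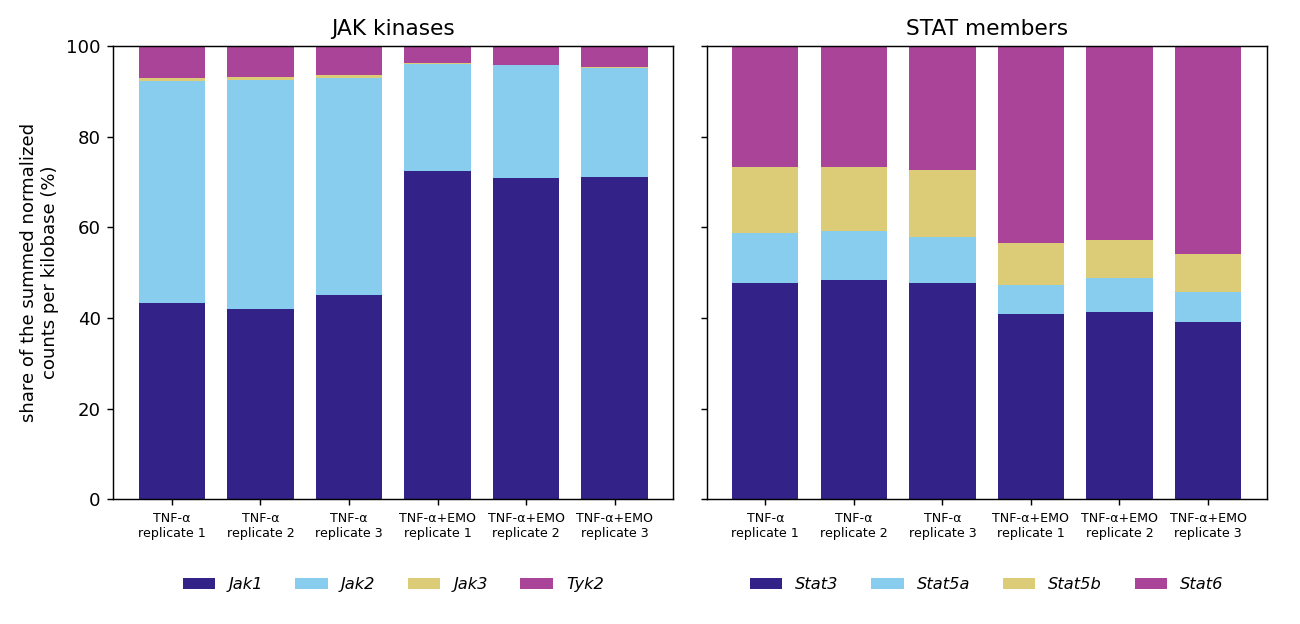
Shares (%) of each gene in the summed normalized counts per kilobase of the JAKs (left) and of Stat3, Stat5a, Stat5b and Stat6 (right), 1 bar per library. With EMO, Jak1 grew from 42.0 to 45.1% to 70.9 to 72.3% of the JAK level, and Stat6 from 26.6 to 27.3% to 42.7 to 45.8% of the level of these 4 STATs.

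Among the STATs, Stat3, Stat5a and Stat5b were lower with EMO in every library while the groups overlapped for Stat6. Stat3, the main STAT of IL-6 family cytokines, lies at chr10:88790408-88842233 on the minus strand. It was at 5761, 5844 and 5692 normalized counts with TNF-α and at 2929, 2957 and 2918 with TNF-α+EMO. Both groups were tight, and the gap between them was many times the spread within either. The mean went from 5766 ± 76.1 to 2935 ± 20.1, 1.96-fold lower (log2 fold change -0.97, SE 0.05, adjusted p = 1.9e-08). Stat3 therefore lay just inside the 2-fold line, and it passed that line in 2 of 15 other fits, at -1.09 with scaling by library totals alone and at -1.02 with upper quartile scaling.

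Stat5a and Stat5b encode closely alike proteins that act downstream of GM-CSF, growth hormone, prolactin and gamma chain cytokines. Stat5a lies at chr10:88764732-88789057 on the plus strand, and its normalized counts were 1092, 1079 and 984 with TNF-α and 378, 447 and 398 with TNF-α+EMO. Stat5b lies at chr10:88686207-88754829 on the minus strand, and its normalized counts were 1072, 1036 and 1073 with TNF-α and 405, 366 and 385 with TNF-α+EMO. For both genes each TNF-α+EMO library was below each TNF-α library. Stat5a went from 1051 ± 58.8 to 408 ± 35.8, 2.58-fold lower (log2 fold change -1.37, SE 0.09, adjusted p = 9.6e-08). Stat5b went from 1060.1 ± 21.2 to 386 ± 19.5, 2.75-fold lower (log2 fold change -1.46, SE 0.08, adjusted p = 1.6e-08). The log2 ratio of Stat5a to Stat5b per kilobase was -0.45 ± 0.10 with TNF-α and -0.36 ± 0.20 with TNF-α+EMO, a difference of 0.09 that the two-sided exact permutation test did not separate (p = 0.5). The paralogs share near-identical stretches, and how the authors' counting assigned reads that match both is not given in the sources used here.

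Stat6, the STAT of IL-4 and IL-13, lies at chr7:70946228-70964484 on the plus strand. Its normalized counts were 2615, 2603 and 2629 with TNF-α and 2517, 2474 and 2764 with TNF-α+EMO. The TNF-α+EMO libraries lay on both sides of the TNF-α libraries, so the groups overlapped. The means were 2616 ± 13.3 and 2585 ± 156 (log2 fold change -0.02, adjusted p = 0.81), and the 95% interval of the difference ran from -10.2% to 8.70%. Stat6 shares 2910 bases with Nab2 on the opposite strand, which had 1216 to 1312 counts with TNF-α and 431 to 535 with TNF-α+EMO. Whether the counting used strand is not given in the sources used here, so reads of the shared stretch may have gone to either gene and the Stat6 values are uncertain to that extent.

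The summed level of these 4 STATs per kilobase was 2721 ± 23.2 with TNF-α and 1642 ± 37.6 with TNF-α+EMO, 60.4% of the TNF-α level. Stat3 was 47.6 to 48.3% of that sum with TNF-α and 39.1 to 41.2% with TNF-α+EMO. Stat6 was 26.6 to 27.3% and 42.7 to 45.8%, so it replaced Stat3 as the largest share with EMO.

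Stat5b, Stat5a and Stat3 are neighbours on chromosome 10. Stat5b and Stat5a start head to head 9.90 kb apart, and the ends of Stat5a and Stat3 face each other across 1.35 kb. The 3 genes lay between log2 fold changes of -1.46 and -0.97. The other genes tested within 150 kb on either side of Stat5a were Cavin1, which encodes a caveolar coat protein and fell (log2 fold change -2.59, SE 0.06, adjusted p = 4.5e-11), and Ghdc and Rab5c, the latter an endosomal GTPase, which rose (0.69 and 0.46, SE 0.09 and 0.06, adjusted p = 2.4e-05 and 3.6e-05). Of these neighbours, the gene beyond Stat3 was lower with EMO and the genes beyond Stat5b were higher.

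**Figure D3:**
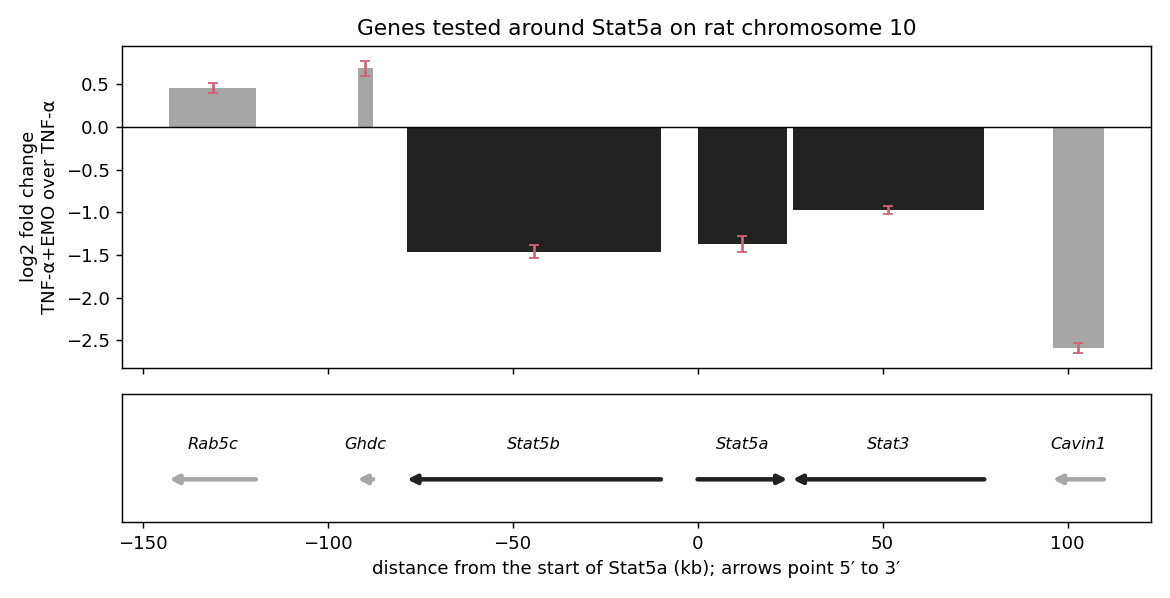
Log2 fold change with its SE (upper panel; bar width is the extent of the gene) and orientation (arrows, lower panel) of the 6 genes tested within 150 kb of Stat5a, by distance in kb from the start of Stat5a. Stat5b, Stat5a and Stat3 (black) and Cavin1 lay below 0, and Rab5c and Ghdc (grey, left) above 0.

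Both feedback inhibitors fell with EMO. SOCS1 and SOCS3 bind JAKs and receptors, in part through an SH2 domain, and recruit a ubiquitin ligase through their SOCS box. Both genes are known STAT targets, so the 250 bases before the Socs1 start are shown with the STAT-type site that a search found in them. RefSeq promoter windows, from 250 bases before to 50 bases after the start on assembly GRCr8, were found for 7 of the 10 genes, all but Jak1, Jak3 and Tyk2. They were searched on both strands for TTCNNNGAA, the core bound by most STAT pairs, and for TTC and GAA with 4 free bases between them, the wider spacing preferred by STAT6. Each pattern reads the same on the other strand. The first was found in 1 of the 7 windows, that of Socs1, and in 8.87% of all 33469 windows, and the second in 0 of the 7 windows and in 7.28% of all windows. In Socs1 the match TTCAGGGAA, in capitals, begins 196 bases before the start. The window of Socs3 is built on a start that lies 1207 bases inside the span RefSeq gives for the gene, against 0 to 226 bases for the other 6, so it may not hold the Socs3 promoter and nothing is read from its lack of a match. A match is a description of letters and no evidence of binding.
Socs1 upstream, GRCr8 chr10:5389324-5389573, plus strand: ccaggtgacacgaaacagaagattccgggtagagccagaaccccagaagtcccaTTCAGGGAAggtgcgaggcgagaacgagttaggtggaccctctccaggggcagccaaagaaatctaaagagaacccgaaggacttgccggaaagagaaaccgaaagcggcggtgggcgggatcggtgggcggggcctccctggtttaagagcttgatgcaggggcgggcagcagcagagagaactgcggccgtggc

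Socs3, the inhibitor that binds the IL-6 receptor subunit gp130, lies at chr10:106975178-106976040 on the minus strand. It was at 265, 211 and 209 normalized counts with TNF-α and at 61.9, 58.3 and 69.3 with TNF-α+EMO. All TNF-α+EMO libraries were below all TNF-α libraries, and TNF-α replicate 1 was the highest. The mean went from 228 ± 31.6 to 63.2 ± 5.58, 3.61-fold lower (log2 fold change -1.85, SE 0.17, adjusted p = 1.3e-06). Socs3 and Stat3 fell unequally: the log2 ratio of Socs3 to Stat3 per kilobase was -2.31 ± 0.19 with TNF-α and -3.18 ± 0.14 with TNF-α+EMO, a difference of -0.87 (two-sided exact permutation p = 0.1, the smallest possible, and 0.15 adjusted over the 3 ratios).

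Socs1, the inhibitor best known for restraining interferon signals, lies at chr10:4957326-4958461 on the plus strand (Rnor_6.0). It was a rare transcript, with 92, 68 and 82 counts with TNF-α and 39, 44 and 54 with TNF-α+EMO. The normalized counts were 90.2, 66.3 and 79.9 against 40.2, 45.0 and 55.0, and the groups were apart by less than for Socs3. The mean went from 78.8 ± 12.0 to 46.8 ± 7.54 (log2 fold change -0.75, SE 0.23, adjusted p = 0.011). This was the weakest of the 9 calls: without TNF-α replicate 1 the log2 fold change was -0.64 with adjusted p = 0.0504, and a test against 1.5-fold gave adjusted p = 0.15.

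**Figure D4:**
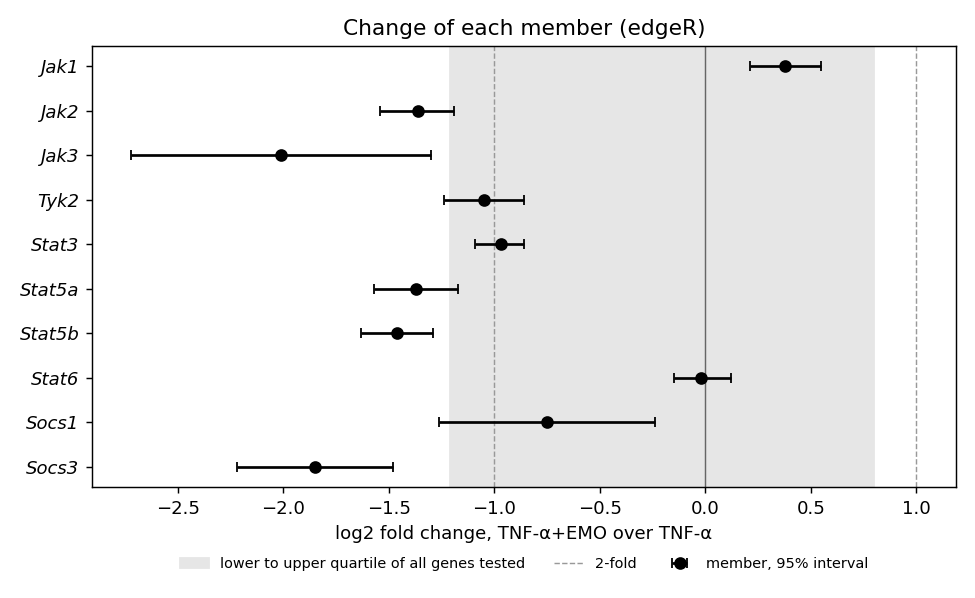
Log2 fold change of each gene, TNF-α+EMO over TNF-α, with its 95% interval; the grey band runs from the lower to the upper quartile of all genes tested (-1.21 to 0.80), and dashed lines mark 2-fold. Jak3 at -2.01 and Socs3 at -1.85 lay farthest to the left, Stat6 lay at -0.02 and Jak1 at 0.38.

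Ordered by level per kilobase in the TNF-α group, Stat3 (1302 ± 17.2) and Jak2 (1298 ± 62.1) came first and did not differ beyond their spread, followed by Jak1 (1146 ± 15.3), Stat6 (731 ± 3.72) and Stat5b (396 ± 7.93). Stat5a (291 ± 16.3) and Socs3 (265 ± 36.7) overlapped, and Tyk2 (179 ± 14.2), Socs1 (69.4 ± 10.6) and Jak3 (16.4 ± 1.35) closed the order. In the TNF-α+EMO group Jak1 (1493 ± 164) came first, before Stat6 (723 ± 43.7), Stat3 (663 ± 4.53) and Jak2 (505 ± 50.4). Below them came Stat5b (144 ± 7.30), Stat5a (113 ± 9.90), Tyk2 (86.7 ± 1.69), Socs3 (73.2 ± 6.47), Socs1 (41.2 ± 6.64) and Jak3 (4.06 ± 1.75), and no neighbours in that order overlapped. Jak2 and Stat3 thus went from the head of the order to below Jak1 and Stat6.

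Beyond the 10 genes, 145 further genes of the pathway were listed by role, of which 96 were tested. With EMO 33 of them rose, 51 fell and 12 did not pass, so that 87.5% changed beside 80.9% of all genes tested, with a median log2 fold change of -0.38. The pathway around the 10 genes therefore moved in both directions, and the groups below are described by their counts and medians. Each count stands beside 41.4% of all genes tested that fell and 39.4% that rose. With so many genes changed, a count in a short list is not read as a trait of that list.

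Of the receptors that use gp130, 3 of the 4 tested fell and none rose, with a median log2 fold change of -1.30. Il6st, which encodes gp130 itself, went from 10255 ± 428 to 2914 ± 197 normalized counts (log2 fold change -1.82, adjusted p = 8.6e-10). Osmr, the oncostatin M receptor, went from 664 ± 29.9 to 234 ± 25.1 (-1.50, adjusted p = 1.0e-07), and Il11ra1, an IL-11 receptor, from 2080.4 ± 110.3 to 978 ± 107 (-1.09, adjusted p = 4.1e-07). Il6r, the IL-6 binding subunit, did not pass (0.09, adjusted p = 0.44). Over the 6 libraries, Il6st was also the listed gene whose centred log2 CPM lay nearest to that of Jak3 (distance 0.72), before Cbl (0.79) and Isg15 (0.83). Jak3 had 23, 10 and 14 counts with TNF-α+EMO, so this order rests on few reads and is not read as a link.

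Of the 8 interferon and IL-10 family receptors tested, 4 rose, 2 fell and 2 did not pass (median 0.30). Il20rb, an IL-20 family receptor chain, fell from 274 ± 8.14 to 18.1 ± 4.16 normalized counts (log2 fold change -3.91, adjusted p = 8.7e-09). The interferon-γ receptor chain Ifngr1 fell from 961 ± 15.1 to 536 ± 44.4 (-0.84, adjusted p = 2.9e-06), while Il10rb, shared by IL-10 and related cytokines, rose from 853 ± 38.0 to 2423 ± 150.4 (1.51, adjusted p = 5.8e-09). The type I interferon receptor chains Ifnar1 (-0.08, adjusted p = 0.27) and Ifnar2 (0.01, adjusted p = 0.95) did not pass.

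Of the 7 gamma chain, IL-4 and IL-13 receptors tested, 3 rose, 3 fell and 1 did not pass (median -0.17). Il2rg, the common gamma chain and the partner of JAK3, fell from 659 ± 48.9 to 58.3 ± 17.4 normalized counts (log2 fold change -3.49, adjusted p = 8.4e-09). Crlf2, a chain of the TSLP receptor, rose from 335 ± 9.31 to 1889 ± 294 (2.49, adjusted p = 4.4e-09), and Il13ra1 fell from 854 ± 73.8 to 642 ± 98.4 (-0.41, adjusted p = 0.0069). Il4r, through which IL-4 and IL-13 reach STAT6, did not pass (-0.17, adjusted p = 0.087). Jak3 and Il2rg were thus both lower with EMO, while Stat6 and Il4r both missed the threshold.

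Of the 6 hormone, beta chain and IL-12 receptors tested, 3 rose, 2 fell and 1 did not pass (median 0.65). Il3ra, the IL-3 receptor alpha chain, rose from 1319 ± 42.6 to 15773 ± 2505 normalized counts (log2 fold change 3.58, adjusted p = 6.8e-10). Csf2ra, the GM-CSF receptor alpha chain, rose from 58.0 ± 7.18 to 147 ± 26.0 (1.34, adjusted p = 8.4e-05). Csf2rb, the beta chain listed beside these alpha chains, had 0 counts in every library and was not tested. Il12rb1, named although its mean count was below the limit used for naming, was at 64.8 ± 4.35 with TNF-α and at 0 counts in each TNF-α+EMO library. Against a floor of 3 counts per library it was at least 21.1-fold lower. Il5ra, also below that limit, went the other way, from 0 counts in each TNF-α library to 27, 29 and 10 with TNF-α+EMO. It was at least 7.70-fold higher. Ghr, the growth hormone receptor, did not pass (-0.04, adjusted p = 0.79).

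Of 36 listed ligands, 12 were tested, and 6 of these rose, 4 fell and 2 did not pass (median 0.26). Csf2, which encodes GM-CSF, fell from 255 ± 27.6 to 45.7 ± 11.2 normalized counts (log2 fold change -2.47, adjusted p = 5.6e-07). The gp130 ligands Lif and Il6 rose, Lif from 423 ± 35.8 to 1567 ± 184 (1.89, adjusted p = 1.8e-08) and Il6 from 71.6 ± 16.6 to 168 ± 8.21 (1.23, adjusted p = 1.5e-04). The ligands Lif and Il6 and the receptor chain Il6st that they share therefore moved in opposite directions at the mRNA level. Lifr, the LIF receptor chain, had no more than 2 counts in any library and was not tested.

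The other negative regulators did not all move one way. Of the 6 other SOCS family genes 2 rose, 3 fell and 1 did not pass (median -0.01). Cish, a STAT5-induced inhibitor, fell from 948 ± 64.0 to 232 ± 4.76 normalized counts (log2 fold change -2.03, adjusted p = 2.6e-09), Socs6 fell from 1024 ± 48.5 to 767 ± 64.6 (-0.42, adjusted p = 7.8e-04), and Socs2, which restrains growth hormone signals, rose from 157 ± 10.6 to 303 ± 20.2 (0.95, adjusted p = 2.4e-05). All 4 genes of the ubiquitin ligase that the SOCS box recruits rose (median 0.83), beside 39.4% of all genes tested. Of these, Rnf7 went from 339.5 ± 25.1 to 1358 ± 305 (2.00, adjusted p = 1.4e-06), Cul5 from 951 ± 44.8 to 1992 ± 239.6 (1.07, adjusted p = 7.2e-07) and Elob from 304 ± 40.8 to 458 ± 56.7 (0.59, adjusted p = 0.0012).

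Of the 14 PIAS, phosphatase and adaptor genes tested, 6 rose, 7 fell and 1 did not pass (median 0.01). Stam, an adaptor in receptor sorting, rose from 1081 ± 33.1 to 4789 ± 574 normalized counts (log2 fold change 2.15, adjusted p = 1.8e-09). Cbl, a ubiquitin ligase of receptors, fell from 471 ± 32.3 to 143 ± 20.0 (-1.72, adjusted p = 2.3e-07), and Ptpn1, a phosphatase that acts on JAK2 and TYK2, fell from 1240.0 ± 61.6 to 532 ± 19.6 (-1.22, adjusted p = 5.7e-08). Ptpn6, a phosphatase best known from blood cells and named after its values were seen, was at 121 ± 12.8 and 12.0 ± 5.65 (-3.33, adjusted p = 2.3e-06). Stat2, a STAT that acts in type I interferon signals, fell from 2056 ± 78.8 to 1492 ± 21.5 (-0.46, adjusted p = 2.8e-05).

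**Figure D5:**
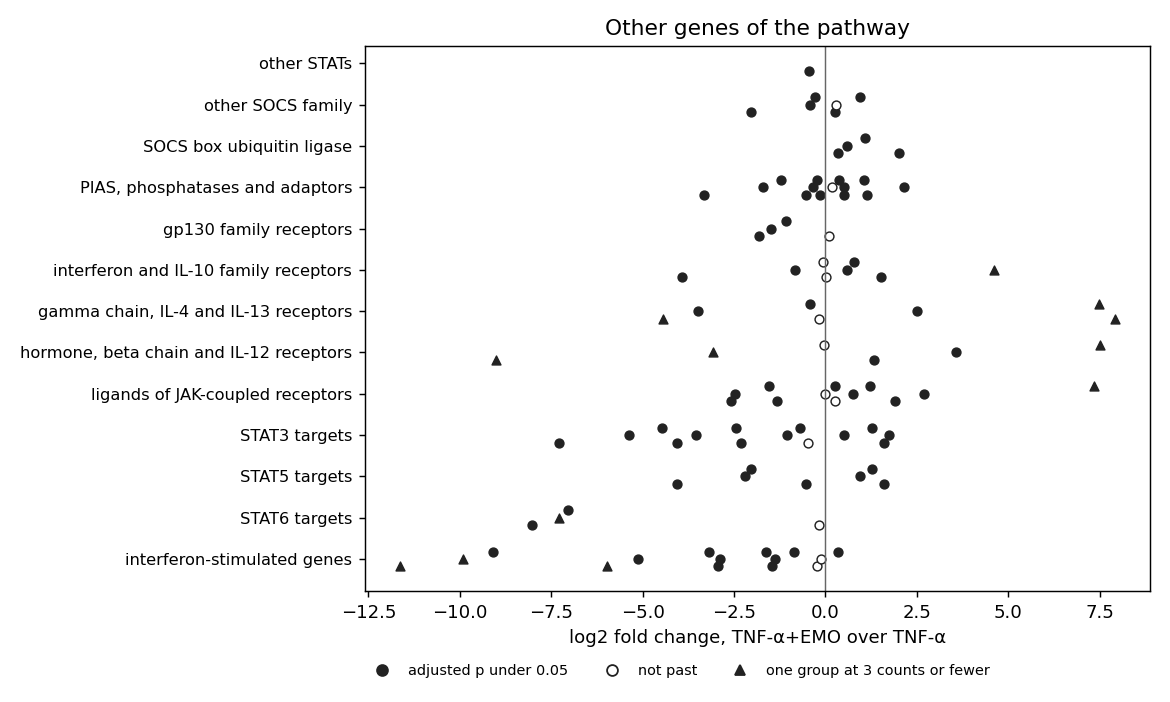
Log2 fold change, TNF-α+EMO over TNF-α, of the other pathway genes tested, 1 row per list. Filled points passed an adjusted p of 0.05, open points did not, and triangles mark genes with no more than 3 counts in each library of 1 group, for which the fitted size is not a bound; the interferon-stimulated genes had a median of -2.89 and the ligase genes lay above 0.

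Genes listed as targets of the STATs are also driven by other factors, so their counts are given without reading them as STAT activity. Of the 14 STAT3 targets tested 4 rose, 9 fell and 1 did not pass (median -1.68). The acute phase genes Lbp and Hp fell, Lbp from 1077 ± 124 to 6.84 ± 4.19 normalized counts (log2 fold change -7.28, adjusted p = 3.0e-10) and Hp from 538 ± 28.6 to 13.0 ± 2.06 (-5.36, adjusted p = 1.1e-10). Birc5, a survival and mitosis gene, fell from 1167 ± 45.7 to 52.6 ± 9.44 (-4.47, adjusted p = 8.1e-11). Junb did not pass (-0.48, adjusted p = 0.057).

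Of the 7 STAT5 targets tested, 3 rose and 4 fell (median -0.53). Ccnd1, which encodes cyclin D1, fell from 13264 ± 576 to 794 ± 26.2 normalized counts (log2 fold change -4.06, adjusted p = 3.6e-12). Bcl2l1, which encodes the survival protein BCL-XL, rose from 899 ± 14.0 to 2698 ± 234 (1.59, adjusted p = 5.6e-09). With Cish, also on this list, the STAT5 targets held genes far down and genes up while both STAT5 genes fell.

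Of the 4 STAT6 targets tested 3 fell and 1, Il4r, did not pass (median -7.17, and -7.02 with genes near 0 held at their bound). The matrix gene Postn fell from 20174 ± 1442 to 152 ± 13.7 normalized counts (log2 fold change -7.05, adjusted p = 1.5e-12), and Arg1, an arginase, was at 393 ± 22.6 with TNF-α and at 2.39 ± 0.578 with TNF-α+EMO. Vcam1, an adhesion gene that TNF-α also induces, fell from 11794 ± 87.0 to 45.4 ± 2.12 (-8.02, adjusted p = 8.1e-13). These genes fell while the Stat6 transcript did not pass the test.

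Of the 15 interferon-stimulated genes 12 fell, 1 rose and 2 did not pass (median -2.89). The antiviral gene Mx1 went from 394 ± 16.3 normalized counts to 0 in each TNF-α+EMO library. Against the same floor this was at least 128-fold lower. Mx2 was at 993 ± 86.3 and 1.72 ± 2.98, and Ciita, the master switch of MHC class II genes, at 445 ± 42.6 and 0.344 ± 0.595.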

How the data were processed

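Per the labels and the study's methods, poly(A) RNA of the 6 libraries was sequenced in paired ends, and the submitters' processing notes name FastQC, Trimmomatic, HISAT2 and Rnor_6.0. The counting program and its strand setting are not given in the sources used here. The deposited table holds the authors' read counts per gene, which are not normalized, beside gene lengths and positions. Its FPKM columns and the authors' own comparison columns (fold changes and p-values) were not used. The methods speak of biological replicates, and nothing names separate cultures, so p-values measure the spread between these libraries. The labels give day 5, whereas the methods describe a shorter incubation.

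Genes with at least 10 counts in 3 libraries were tested with edgeR 4.0.16 in R 4.3.3 (TMM scaling, robust quasi-likelihood F test, Benjamini-Hochberg over 13614 genes), with a common biological coefficient of variation of 0.121. The steps were tested on simulated data in which few genes changed, evenly up and down. That check does not cover the scaling under a change as broad as the one here. A change is an adjusted p under 0.05, and the SE is the log2 fold change divided by the root of F. Normalized counts were scaled by TMM to the mean library. Ratios were compared by two-sided exact permutation tests. Floors cover counting error only. Alternatives were DESeq2 1.42.0, limma-voom (limma 3.58.1), other scalings and filters, a 1.5-fold test, a replicate block and leaving out each library.

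Same-numbered replicates of the 2 groups did not deviate together (correlations 0.0193, -0.00683 and 0.0676), so the numbers were not taken as pairs. The members, gene lists and tests were chosen with earlier results of these data known. In each list the up to 3 changed genes of largest log2 fold change, with groups that do not overlap and a mean count of 100 or more, were named. The endothelial markers summed to 56.5 to 63.8 normalized counts with TNF-α and 10.2 to 18.6 with TNF-α+EMO, and the epithelial ones to 9949.5 to 10806 and 1968 to 2304. Nearly all of the epithelial sum was Krt8 in both groups. 1 further STAT gene is not reported here. Sequences are from RefSeq (GRCr8).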

Additional observations from a re-analysis of the deposited data

How the results depend on the processing

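The number of the 10 genes that changed, their directions and the count past 2-fold were recomputed under 15 other fits. Of 150 log2 fold changes of the 10 genes, 147 kept their side of the threshold, and those of the 9 genes that changed kept their direction. Stat6, which did not pass in any fit, ran from -0.13 to 0.01 and was above 0 without TNF-α+EMO replicate 2. The exceptions to the first count were Jak1 (0.38, adjusted p = 1.0) and Socs1 (-0.75, adjusted p = 0.15) in the edgeR test against 1.5-fold, under which 0 genes counted as higher, and Socs1 without TNF-α replicate 1 (-0.64, adjusted p = 0.0504). With library totals as the only scaling, which moved the median of all genes tested by -0.11, the median of the 10 genes was -1.32. Without a filter on low counts the median of all genes moved by -0.12, but over a larger set, 19744 genes in place of 13614. The median of the 10 genes stayed at -1.21 in that fit. With the replicate block 9 of the 10 genes and 85 of the further pathway genes were called, and the block changed no call among the 10. Shared numbers did not pair the libraries, so this fit is given only as an alternative. The further pathway genes called numbered 63 in the test against 1.5-fold, 75 with a filter of 50 counts, and 82 to 86 with 1 library left out. Without TNF-α+EMO replicate 3, the library least like the others of its group, Jak1 was at 0.46 and Stat6 at -0.07. That was the highest value of Jak1. It was at 0.30 without TNF-α+EMO replicate 1 and lowest, at 0.27, with library totals as the only scaling. Depth limited Jak3 and Socs1 most, with 10 to 92 counts per library.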
